A study of Mus musculus with 7 samples.

Results

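The pyruvate dehydrogenase complex and the enzymes that switch it were followed through their mRNAs in the brown fat of newborn mice without glycerol kinase. The members are 10 genes picked for their role, of 18193 genes named by the array's probe table. They are the catalytic subunits Pdha1, Pdhb, Dlat and Dld, the binding protein Pdhx, the kinases Pdk1, Pdk2, Pdk3 and Pdk4, and the phosphatase Pdp2. All probe sets that carry 1 of these symbols were taken, 18 in all. The samples were total RNA of brown fat from male C57BL/6J mice aged 3 days, either with the glycerol kinase gene Gyk knocked out (KO, n = 4, replicates 1 to 4) or wild type (n = 3, replicates 1, 3 and 4). Each sample was hybridised to 1 array, and the labels describe no other allele or treatment and do not say whether the replicates were separate animals, so every p-value measures the spread between these samples.

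The complex sits in the mitochondrial matrix and turns pyruvate, the end product of glycolysis, into acetyl-CoA, which feeds the citric acid cycle and fatty acid synthesis. The kinases phosphorylate its catalytic alpha subunit and shut it down, and the phosphatases open it again, so the balance of the enzymes sets how much glucose carbon is burned. Pdk4 is known as the kinase that fasting, fatty acids and glucocorticoids induce, and brown fat, which burns both fat and glucose for heat, is rich in the complex.

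The probe table pairs 0 probe sets with the targeted gene, so genotypes are known from the labels alone. The array labelled KO replicate 2 stood apart from the other KO arrays. On a first principal component with 35.3% of the variance, KO replicates 1, 3 and 4 scored between -35.7 and -33.4 and KO replicate 2 scored 13.8, against 23 to 33.3 for the wild-type arrays. Its signal for Xist, the RNA that silences an X chromosome, was 893 on 1 probe set and at most 13.1 on every other array, although all samples are labelled male. The arrays also fall into 2 blocks by the accession range in which they were deposited, the first with KO replicates 1 and 2 and wild-type replicate 1 and the second with KO replicates 3 and 4 and wild-type replicates 3 and 4. Median signals ran from 131.2 to 153.7 across the arrays. The markers of brown fat were present on every array, with a summed signal of 100432 to 127670 in KO and 103466 to 121874 in wild type, and 0 of 9 passed the test.

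Differences are on the scale log2(signal + 30.6), KO minus wild type, with their standard error (SE). Tests are those of limma over 27022 probe sets, adjusted by Benjamini-Hochberg, with 0.05 as the threshold. On this scale the folds of dim probe sets come out too small, and signals of different probe sets cannot be set against each other. Of the 18 member probe sets, 16 from 9 genes had enough signal to be tested, and the 2 others, 1 of Dld and the only one of Pdk3, did not.

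At the level of mRNA, 0 of the 16 tested probe sets of the complex, its kinases and Pdp2 passed in either direction, where 1.59% of all tested probe sets did. A single member probe set had an unadjusted p under 0.05, against 16.5% of all probe sets. The median difference of the 16 was -0.01 on the log2 scale, beside 0 over all tested probe sets, and the median size of the difference was 0.08, beside 0.18. These comparisons were not matched for signal. By mean signal, Pdk1 1434974_at lay at percentile 41.4 of the table and every other tested member probe set at percentile 82.7 or above. The 95% confidence intervals of all 16 lay within 2-fold either way, and those of 15 lay within 1.5-fold. In bulk tissue, fewer cells of a type and less RNA per cell cannot be told apart. For 2 of the 16 probe sets no KO array lay within the wild-type range or the reverse, which is 12.5%, against 14.7% of all tested probe sets.

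**Figure D1:**
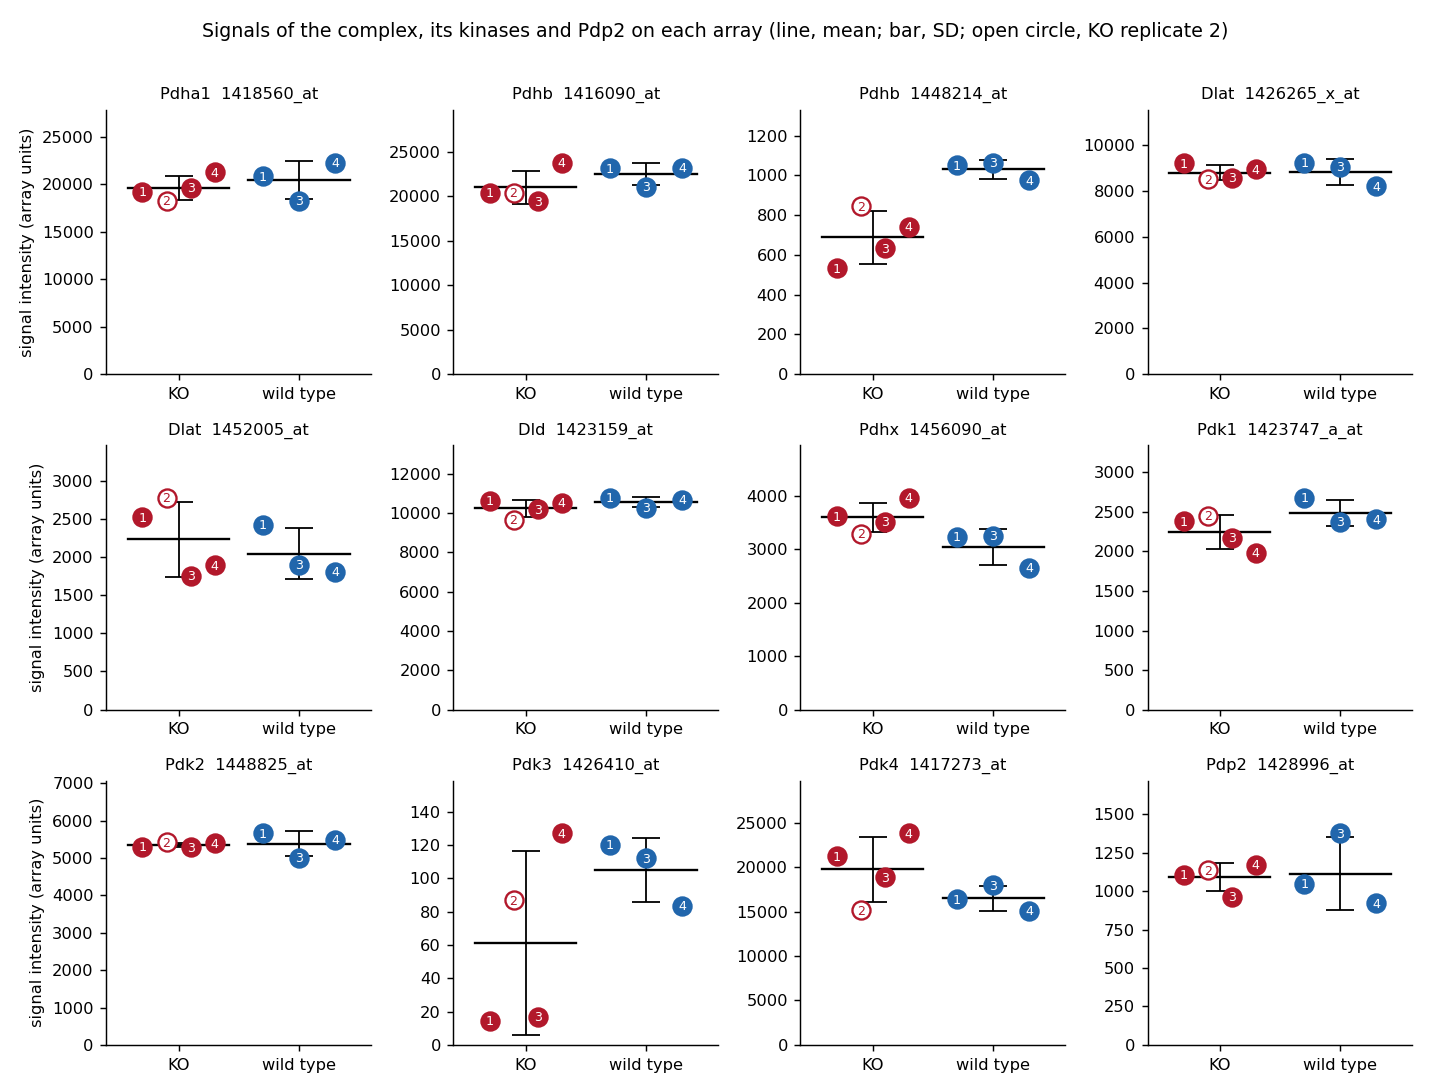
Signal intensity (array units, linear axis from 0) of 12 member probe sets on each array, KO left and wild type right. Points carry the replicate number, the open circle is KO replicate 2, the line is the mean and the bar the SD. The groups are apart for Pdhb 1448214_at, where all 4 KO arrays lie below the 3 wild-type arrays, and for Pdhx, where they lie above.

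Pdha1 encodes the alpha subunit of the pyruvate decarboxylase step, the part that the kinases phosphorylate. Its brighter probe set, 1418560_at, read 19212, 18228, 19652 and 21271 in KO replicates 1 to 4, against 20844, 18240 and 22258 in wild-type replicates 1, 3 and 4. The groups overlapped, with means of 19591 ± 1268 in KO and 20448 ± 2038 in wild type (SD, n = 4 and 3). The log2 difference was -0.06 ± 0.10 (SE), with a 95% interval of -0.29 to 0.17 and an adjusted p of 0.839. The other probe set, 1449137_at, averaged 8009 ± 997 in KO and 8728 ± 636 in wild type, a log2 difference of -0.13 with an adjusted p of 0.657. KO replicate 2 had the lowest signal of the 7 arrays there, at 6570.

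Pdhb encodes the beta subunit, which forms the same decarboxylase with the alpha subunit. Its brighter probe set, 1416090_at, read 20401, 20390, 19447 and 23773 in KO, against 23164, 21055 and 23241 in wild type. The groups overlapped, and the log2 difference was -0.10 ± 0.10 (SE; 95% interval -0.32 to 0.12; adjusted p = 0.693). The dimmer probe set, 1448214_at, was the member furthest from 0. It read 533, 844, 634 and 742 in KO, against 1050, 1063 and 975 in wild type, so that every KO array lay below every wild-type array. The means were 689 ± 134 in KO and 1029 ± 47.7 in wild type, a ratio of 0.67, and the log2 difference of -0.58 ± 0.16 (95% interval -0.92 to -0.24) did not pass (adjusted p = 0.0943).

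Within the first deposit block that probe set differed by -0.62 and within the second by -0.55, and with the block as a covariate its adjusted p was 0.0917. KO replicate 2 was the KO array nearest to wild type. Without it the difference was -0.68 and passed (adjusted p = 0.0189), in a fit in which 7.35% of all probe sets passed. The brighter probe set of the same gene differed by -0.09 in that fit (adjusted p = 0.693), so the probe sets of Pdhb did not give the same reading. No test of the difference between them was run.

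The 250 bases upstream of the RefSeq start of Pdhb (GRCm38.p6, chr14:8172993-8173242, minus strand) are shown because its probe set lay furthest from 0. Capitals mark matches, on either strand, to the CCAAT box (CCAAT, or ATTGG read on the other strand), the Sp1 box (GGGCGG) and the core of hypoxia response elements (ACGTG, read here as CACGT).
Pdhb: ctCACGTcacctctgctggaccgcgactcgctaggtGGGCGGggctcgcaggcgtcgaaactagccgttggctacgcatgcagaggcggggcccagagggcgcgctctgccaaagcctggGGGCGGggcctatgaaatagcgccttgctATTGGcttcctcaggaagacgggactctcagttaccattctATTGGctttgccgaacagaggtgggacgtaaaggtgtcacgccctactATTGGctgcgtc
It holds 3 CCAAT-box matches, the nearest beginning 12 bases before the start, and 2 Sp1-box matches. Of the windows of all genes, 33.8% hold a CCAAT box, 32.7% an Sp1 box and 16.6% the core ACGTG.

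Dlat encodes the acetyltransferase core around which the complex is built. Its probe set 1426265_x_at read 9211, 8515, 8572 and 8949 in KO, against 9239, 9074 and 8210 in wild type. The groups overlapped almost fully, with means of 8812 ± 329 in KO and 8841 ± 553 in wild type and a 95% interval of the log2 difference of -0.21 to 0.20 (adjusted p = 0.991). The probe set 1426264_at averaged 7346 ± 611 in KO and 7060 ± 534 in wild type (log2 difference 0.06, adjusted p = 0.853). The third probe set, 1452005_at, read 2521, 2775, 1755 and 1891 in KO, against 2427, 1898 and 1811 in wild type (log2 difference 0.11, adjusted p = 0.812).

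The deposit blocks overlapped on 1426265_x_at, while the Dlat probe sets 1426264_at and 1452005_at split by block rather than by genotype. On 1426264_at the split was narrow, at 7390 in wild-type replicate 1 against 7345 in wild-type replicate 3. On both of these probe sets, each of the 3 arrays of the first block read above each of the 4 arrays of the second. That order was seen for 2 of the 16 member probe sets, both of Dlat, and for 2.49% of all tested probe sets. The 10 skeletal muscle markers split in the same way when their signals were summed, at 40507 and 35472 in KO replicates 1 and 2 and 37542 in wild-type replicate 1, and at 24014 and 20958 in KO replicates 3 and 4 and 23913 and 24299 in wild-type replicates 3 and 4. Of these markers 0 of 10 passed between the genotypes. Their part in the Dlat signal was not tested. Without KO replicate 2 the log2 difference of 1452005_at was 0.00.

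**Figure D2:**
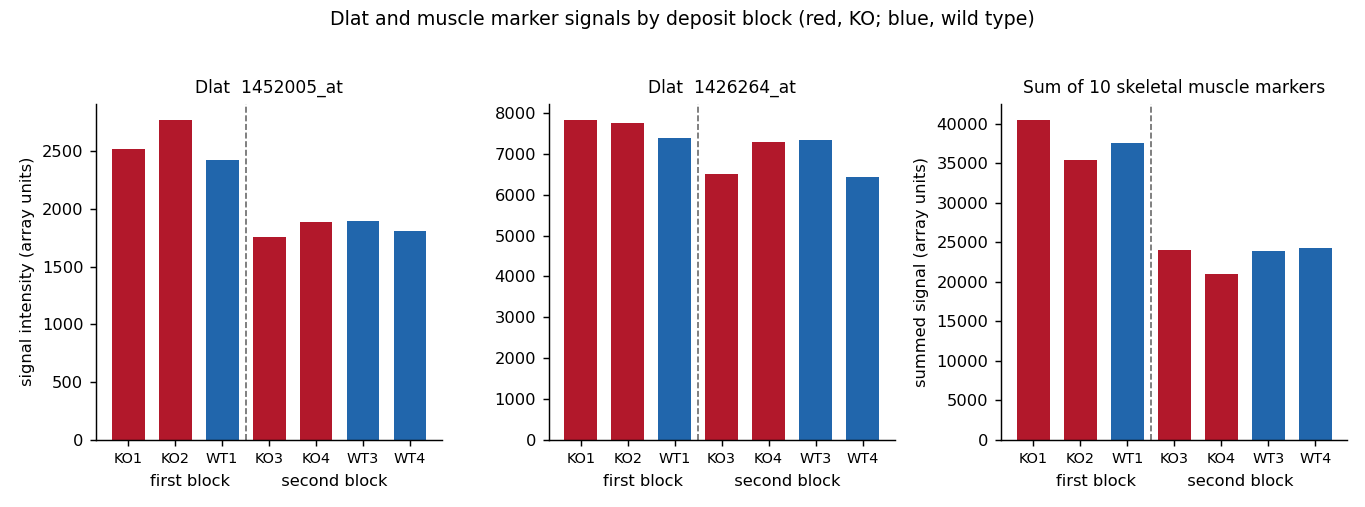
Signals by deposit block, with KO left of wild type within each block and signal intensity in array units on the vertical axis. The 3 arrays of the first block read above the 4 arrays of the second for the Dlat probe set 1452005_at and for the summed skeletal muscle markers.

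Dld encodes the dihydrolipoamide dehydrogenase that the complex shares with the other oxoacid dehydrogenases. Its tested probe set, 1423159_at, read 10612, 9644, 10188 and 10521 in KO, against 10754, 10270 and 10681 in wild type. The groups overlapped within a narrow range, with a log2 difference of -0.05 ± 0.09 (SE; 95% interval -0.24 to 0.15; adjusted p = 0.857). The second probe set, 1433263_at, lay under the filter with a mean signal of 51.1 over all arrays and was not tested. Its signals were 42.6 ± 15.9 in KO and 62.3 ± 45.3 in wild type.

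Pdhx encodes the binding protein that anchors the dihydrolipoamide dehydrogenase in the core. Its probe set 1456090_at read 3613, 3290, 3518 and 3956 in KO, against 3231, 3248 and 2657 in wild type. All KO arrays lay above all wild-type arrays, although KO replicate 2 exceeded the highest wild-type array by little. The means were 3594 ± 277 in KO and 3045 ± 336 in wild type, and the log2 difference of 0.24 ± 0.11 (95% interval -0.01 to 0.49) was 1.18-fold and did not pass (adjusted p = 0.325). It was 0.09 in the first deposit block and 0.34 in the second, and without KO replicate 2 it was 0.28 (adjusted p = 0.179).

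**Figure D3:**
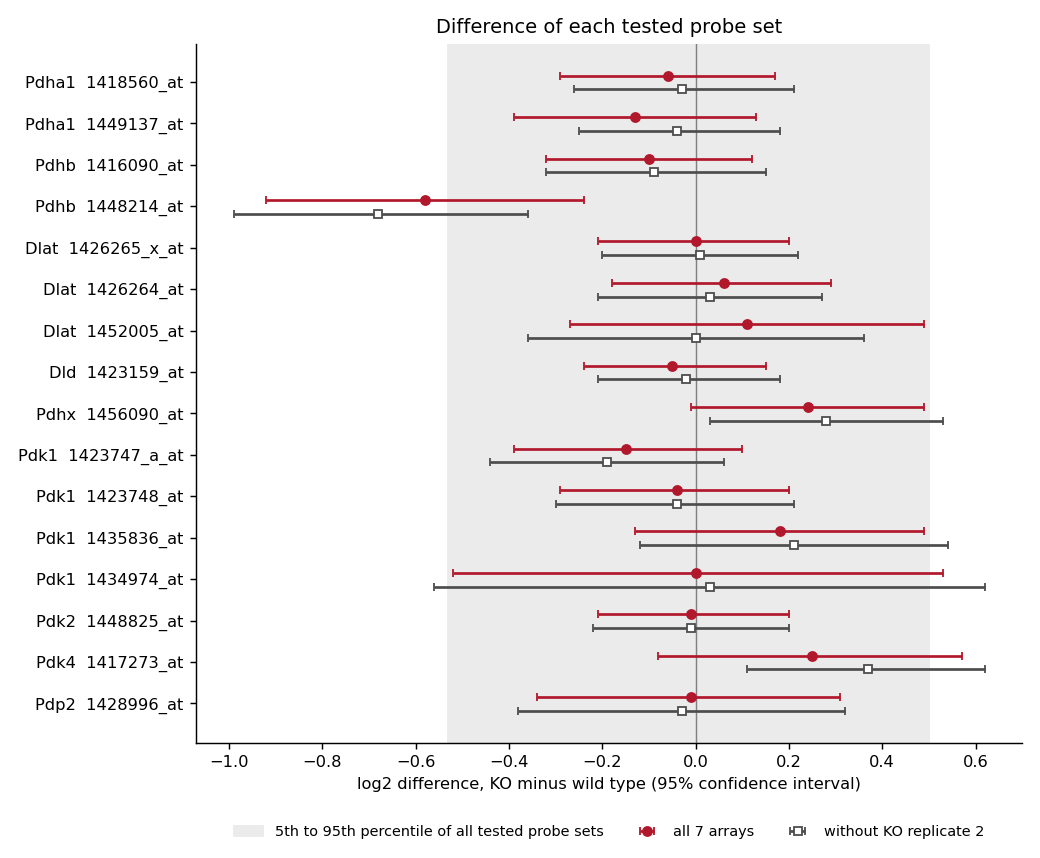
Log2 difference, KO minus wild type, with its 95% confidence interval for the 16 tested member probe sets, and the values without KO replicate 2 beside them. The intervals of all but 1 probe set include 0 with all 7 arrays, and that of Pdhb 1448214_at runs from -0.92 to -0.24. Without KO replicate 2 those of Pdhx and Pdk4 lie above 0 as well.

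Among the kinases, Pdk4 is the fasting-induced member. Its single probe set, 1417273_at, read 21225, 15140, 18881 and 23802 in KO, against 16395, 17941 and 15104 in wild type. KO replicates 1, 3 and 4 lay above every wild-type array, and KO replicate 2 lay within the wild-type range. The means were 19762 ± 3679 in KO and 16480 ± 1421 in wild type, and the log2 difference of 0.25 ± 0.15 did not pass (adjusted p = 0.449). Its 95% interval, -0.08 to 0.57, spans ratios of 0.949-fold to 1.48-fold. Without KO replicate 2 the difference was 0.37 and the groups were apart, as for 27.1% of all probe sets in that fit, and it did not pass (adjusted p = 0.0846, the lowest over all alternatives, which reached 0.731). The difference was 0.13 in the first deposit block and 0.36 in the second. The probe set lay among the brightest 0.51% of the table; its highest reading was 23802, and the highest signal of the whole table, from another gene, was 40460.

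The Pdk4 window upstream of the start (GRCm38.p6, chr6:5496279-5496528, minus strand) is shown for the same motifs, and that of Pdk2 (chr11:95041372-95041621, minus strand, 1 of its 2 starts) beside it, because Pdk4 had the log2 difference furthest from 0 of the tested kinases and Pdk2 the steadiest KO readings. Capitals again mark matches, which here include the E-box CACGTG.
Pdk4: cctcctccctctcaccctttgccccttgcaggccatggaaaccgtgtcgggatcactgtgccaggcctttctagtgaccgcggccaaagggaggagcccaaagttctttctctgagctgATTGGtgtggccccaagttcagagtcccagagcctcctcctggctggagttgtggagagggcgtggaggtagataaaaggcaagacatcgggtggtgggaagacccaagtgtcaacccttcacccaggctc
Pdk2: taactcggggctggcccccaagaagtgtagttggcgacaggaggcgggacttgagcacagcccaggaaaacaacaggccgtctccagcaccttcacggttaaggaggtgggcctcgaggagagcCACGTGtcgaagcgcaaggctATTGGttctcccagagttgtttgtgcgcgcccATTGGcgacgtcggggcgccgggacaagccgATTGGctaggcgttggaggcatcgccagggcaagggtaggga
The Pdk4 window holds 1 CCAAT-box match and the Pdk2 window holds 3 with 1 E-box match, whose letters include the core ACGTG. The window of the other Pdk2 start (chr11:95040876-95041125, minus strand) holds 0 matches to any motif searched. Of the 12 member windows of the 10 genes, 6 held a CCAAT box, 6 an Sp1 box, 4 the core ACGTG and 2 an E-box. Of all windows, 16.6% held the core and 6.02% an E-box. Searches on both strands for the FoxO site GTAAACA (3.17% of all windows), the nuclear receptor half-site AGGTCA (14%) and the TATA box TATAAA (12.4%) found 0 matches in the 12 windows. The half-site AGAACA of the glucocorticoid receptor was found in 1, that of Pdk1, against 16.1%. The estrogen-related receptor site TCAAGGTCA was found in 0 of the 12 and in 0.387% of all windows. The share of G and C letters had a median of 61.6% in the member windows and 52.4% in all windows. The motif shares were not matched for it. A match is a run of letters within this window and no measure of binding, and its absence says nothing of sites elsewhere.

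Pdk2, the most widely expressed kinase of the family, gave the steadiest readings of the tested members on the KO arrays. Its probe set 1448825_at read 5306, 5419, 5293 and 5390 in KO, against 5660, 5008 and 5482 in wild type. The KO arrays lay inside the wild-type range, with a coefficient of variation of 1.16% in KO and 6.26% in wild type. The log2 difference was -0.01 ± 0.09 (SE), with a 95% interval of -0.21 to 0.20 (adjusted p = 0.984).

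Pdk1, a kinase known as a target of hypoxia signalling, had 4 probe sets, and the groups overlapped on each. The brightest, 1423747_a_at, read 2380, 2451, 2171 and 1984 in KO, against 2675, 2374 and 2408 in wild type (log2 difference -0.15 ± 0.11, adjusted p = 0.573). The probe set 1423748_at averaged 1693 ± 59.9 in KO and 1750 ± 194 in wild type (log2 difference -0.04, adjusted p = 0.900). The probe set 1435836_at pointed the other way, with 944 ± 82.3 in KO and 835 ± 142 in wild type (log2 difference 0.18, adjusted p = 0.591), and by -0.12 in the first deposit block and 0.38 in the second. The fourth, 1434974_at, lay just inside the filter, at 99.1 ± 14 in KO and 101 ± 31.5 in wild type, and its interval of -0.52 to 0.53 was the widest of the members.

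That filter acted on mean log2 values, and its cut stood at a signal of 88.9 when turned back from that scale. Pdk3 lay under it, with an arithmetic mean signal of 80.1, which is not on the same scale. Its probe set 1426410_at read 14.5, 86.8, 16.8 and 127 in KO, against 120, 112 and 83.6 in wild type. The KO arrays spread over a wider range than the wild-type arrays and the groups overlapped. With no filter its log2 difference was -0.76 (adjusted p = 0.562).

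Pdp2 encodes a catalytic subunit of the phosphatase that reactivates the complex. Its probe set 1428996_at read 1106, 1137, 962 and 1172 in KO, against 1048, 1376 and 920 in wild type. The KO arrays lay inside the wild-type range, and the log2 difference was -0.01 ± 0.15 (95% interval -0.34 to 0.31; adjusted p = 0.984). Pdp1, the other catalytic subunit, read 414 ± 35.7 in KO and 409 ± 56.9 in wild type, a log2 difference of 0.02 (adjusted p = 0.963).

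Genes around the complex were read from the same fit in 6 lists of 62 genes, of which 56 were on the array and 54 were tested by their brightest probe set. Klf15 was the 1 gene of the 54 that passed, against 1.85% of all genes tested by their brightest probe set, and the lists' medians lay between -0.26 and 0.08, beside -0.01 over all genes. Without KO replicate 2, 5 of the 54 passed as higher and 6 as lower, against 3.4% and 5.02% of all genes.

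**Figure D4:**
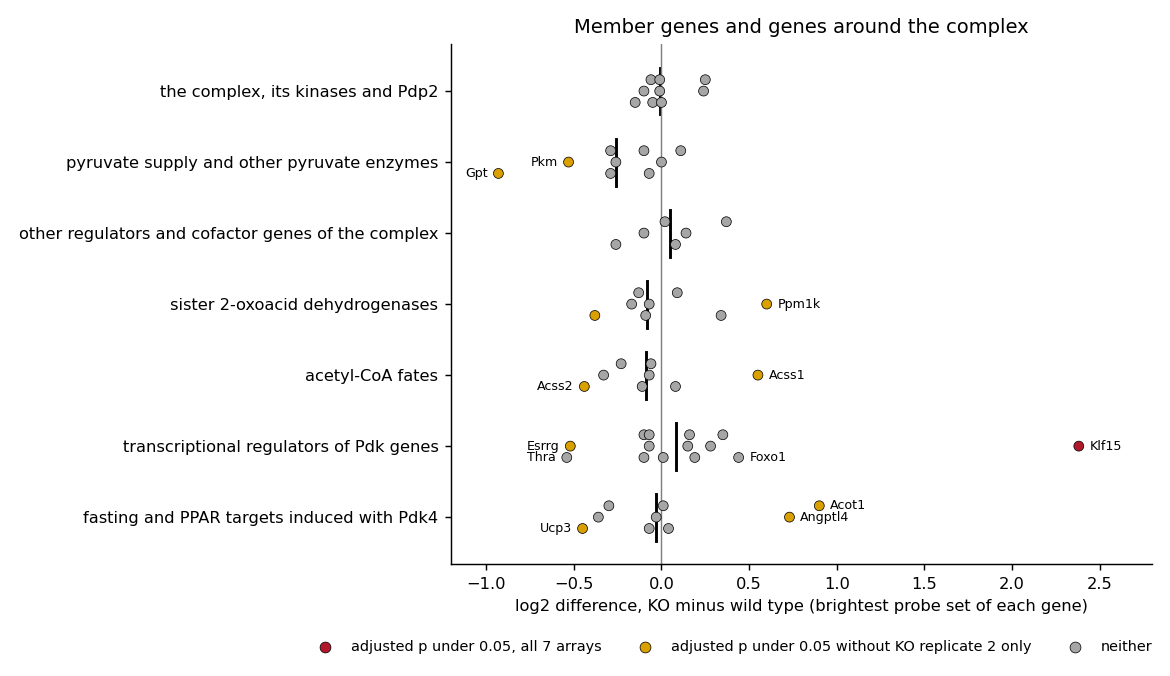
Log2 difference, KO minus wild type, of the brightest probe set of each gene, by list. Each point is a gene and the short line is the median of the list. Red points passed in the fit of all 7 arrays. Yellow points did not pass there but passed in the fit without KO replicate 2. No other fit is shown. Klf15, at 2.38, is the single red point.

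The 9 tested genes of pyruvate supply and other pyruvate enzymes had a median of -0.26, and 0 passed. Gpt, the alanine aminotransferase that makes pyruvate from alanine, read 1501, 2970, 1596 and 1682 in KO, against 3721, 3258 and 3784 in wild type. The groups did not overlap, and the log2 difference of -0.93 missed the threshold (adjusted p = 0.0531). It passed once the deposit block entered the fit (adjusted p = 0.0417), as 2.34% of all probe sets did, and without KO replicate 2 (-1.15, adjusted p = 0.000539). Pkm, the pyruvate kinase of most tissues, averaged 7632 ± 1583 in KO and 10827 ± 587 in wild type (-0.53, adjusted p = 0.115) and passed in the same fits (adjusted p = 0.0356 with the block and 0.0243 without that array). Ldhb, a lactate dehydrogenase subunit, averaged 10284 ± 438 in KO and 12648 ± 1664 in wild type (-0.29, adjusted p = 0.203). Mpc1, a subunit of the mitochondrial pyruvate carrier, differed by -0.07 (adjusted p = 0.816).

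Of the genes that supply cofactors to the complex or regulate it, 0 of 6 tested passed, and the median was 0.05. Slc19a2, a thiamine transporter, averaged 330 ± 55.7 in KO and 247 ± 28.8 in wild type (log2 difference 0.37, adjusted p = 0.325). Lipt1, a lipoyltransferase, averaged 796 ± 79.8 in KO and 960 ± 74.4 in wild type (-0.26, adjusted p = 0.330), and Lias, the lipoic acid synthase, averaged 4997 ± 371 in KO and 4534 ± 375 in wild type (0.14, adjusted p = 0.564). Pdpr, the regulatory subunit of the phosphatase, differed by 0.08 (adjusted p = 0.812).

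The sister oxoacid dehydrogenases had a median of -0.08 with 0 of 8 passing. Bckdk and Ppm1k, the kinase and the phosphatase of the branched-chain complex, lay on opposite sides of 0. Bckdk averaged 2346 ± 326 in KO and 3052 ± 235 in wild type (log2 difference -0.38, adjusted p = 0.156), and Ppm1k averaged 1478 ± 154 in KO and 975 ± 197 in wild type (0.60, adjusted p = 0.0732). The arrays did not overlap for either gene, and without KO replicate 2 both passed (-0.46, adjusted p = 0.0357, and 0.61, adjusted p = 0.0476). Within the second deposit block Ppm1k passed (0.87, adjusted p = 0.0215), while in the first it differed by 0.18. Bckdha, the alpha subunit of that complex, averaged 7779 ± 744 in KO and 6165 ± 819 in wild type (0.34, adjusted p = 0.189).

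The genes of acetyl-CoA fates had a median of -0.09, and 0 of 8 passed. Acss1, the mitochondrial acetyl-CoA synthetase, averaged 5915 ± 674 in KO and 4077 ± 887 in wild type (log2 difference 0.55, adjusted p = 0.0927). Acss2, its cytosolic counterpart, averaged 1560 ± 362 in KO and 2097 ± 324 in wild type (-0.44, adjusted p = 0.238). The pair lay on opposite sides of 0, and without KO replicate 2 each passed (0.60, adjusted p = 0.0388, and -0.58, adjusted p = 0.0358). Within the second deposit block Acss1 passed (0.85, adjusted p = 0.0129), while in the first it differed by 0.07. Slc25a1, the citrate carrier, averaged 4769 ± 572 in KO and 5970 ± 319 in wild type (-0.33, adjusted p = 0.179), and Cs, the citrate synthase, differed by -0.06 (adjusted p = 0.801).

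Of the 14 transcriptional regulators of the Pdk genes, Klf15 passed, and the median was 0.08. Klf15, a factor induced by glucocorticoids, read 1824, 490, 1330 and 1651 in KO, against 254, 235 and 138 in wild type. All KO arrays lay above all wild-type arrays, with KO replicate 2 nearest to them, and the log2 difference was 2.38 ± 0.38 (adjusted p = 0.0228). Leaving out any one of the 6 arrays other than KO replicate 2 ended the call, with adjusted p between 0.0615 and 0.0977 and log2 differences between 2.15 and 2.53. The call also ended with no filter on low signal (adjusted p = 0.0529) and with no variance trend (adjusted p = 0.0793). Without KO replicate 2 the difference was 2.79 (adjusted p = 0.000192).

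Foxo3, a factor that insulin signalling keeps out of the nucleus, passed on a probe set that was not its brightest. That probe set, 1434832_at, read 728, 577, 549 and 596 in KO, against 349, 340 and 335 in wild type, with no overlap. The log2 difference was 0.78 ± 0.14 (adjusted p = 0.0298), and leaving out any one array other than KO replicate 2 gave adjusted p between 0.0695 and 0.113. The call also ended with no filter (adjusted p = 0.0551), with no variance trend (adjusted p = 0.0793) and within the second deposit block (adjusted p = 0.0684). The brighter probe set, 1434831_a_at, differed by 0.15 (adjusted p = 0.775). Foxo1, its relative, averaged 2731 ± 612 in KO and 1980 ± 292 in wild type on its brightest probe set (0.44, adjusted p = 0.211). On 1416983_s_at and 1416981_at it differed by 0.65 (adjusted p = 0.0629) and 0.75 (adjusted p = 0.0672), and both passed without KO replicate 2 (adjusted p = 0.0296 and 0.0256). On each of these 3 probe sets all KO arrays lay above all wild-type arrays. Esrrg, an estrogen-related receptor, averaged 908 ± 141 in KO and 1306 ± 145 in wild type (-0.52, adjusted p = 0.108) and passed without KO replicate 2 (-0.57, adjusted p = 0.0492).

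**Figure D5:**
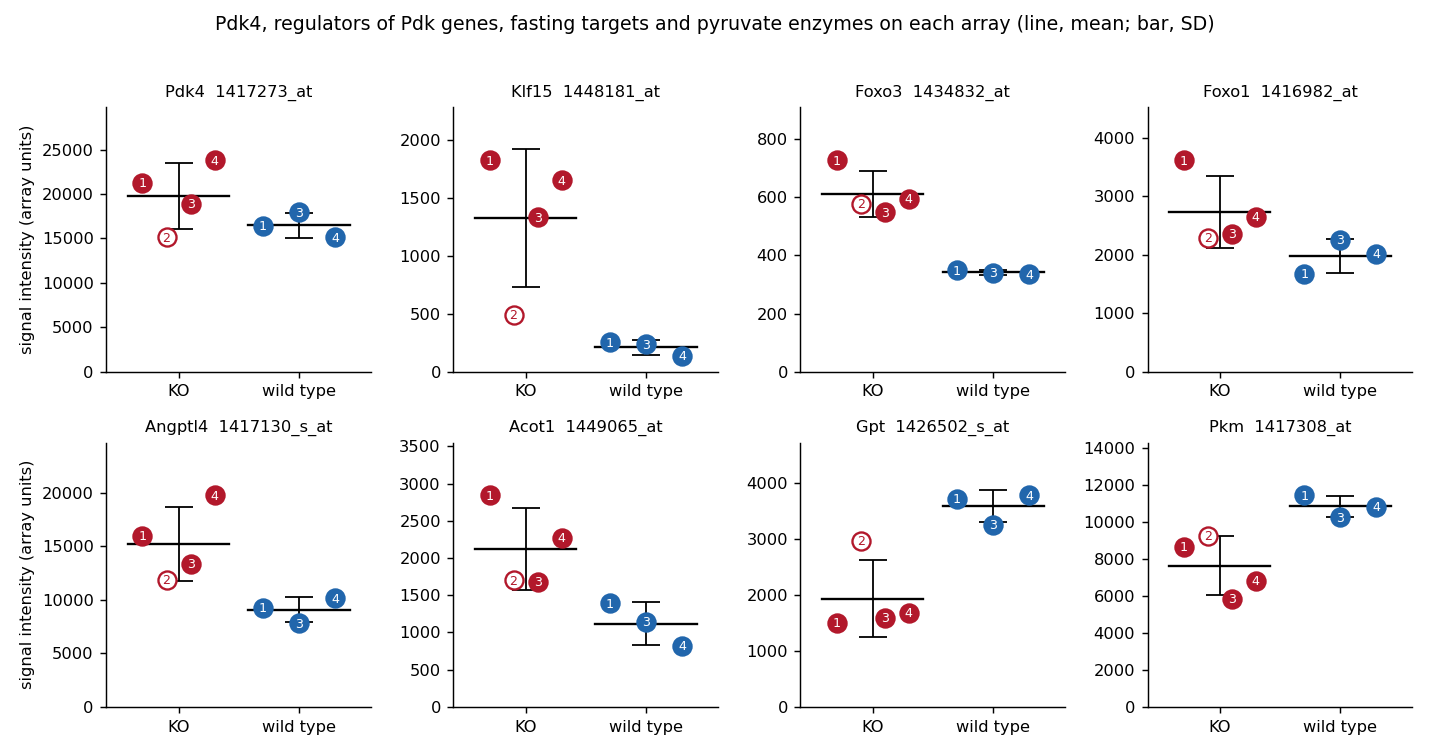
Signals of Pdk4, Klf15, Foxo3, Foxo1, Angptl4, Acot1, Gpt and Pkm on each array, KO left and wild type right. Replicate numbers, means and SD are shown. The KO arrays of Klf15, between 490 and 1824, lie above the wild-type arrays, between 138 and 254, while the groups of Pdk4 overlap through KO replicate 2.

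Of the fasting and PPAR targets known to be induced along with Pdk4, 0 of 9 passed, and the median was -0.03. Angptl4, an inhibitor of lipoprotein lipase, read 15963, 11840, 13351 and 19731 in KO, against 9272, 7790 and 10149 in wild type. The groups did not overlap (log2 difference 0.73, adjusted p = 0.0603). Acot1, a cytosolic acyl-CoA thioesterase, averaged 2122 ± 551 in KO and 1119 ± 286 in wild type (0.90, adjusted p = 0.0639). Both passed without KO replicate 2 (adjusted p = 0.0104 and 0.0234). Ucp3, a mitochondrial carrier of the uncoupling protein family, passed in the other direction in that fit (-0.72, adjusted p = 0.0238) and within the second deposit block (-0.68, adjusted p = 0.0371). With all 7 arrays it read 1586, 2812, 1290 and 1184 in KO, against 2744, 1965 and 2045 in wild type (-0.45, adjusted p = 0.420), and KO replicate 2 was the highest of the 7 arrays. Cpt2, of the fatty acid import into mitochondria, averaged 10185 ± 1039 in KO and 12556 ± 1010 in wild type (-0.30, adjusted p = 0.200).

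Markers of other cells gave the following beside these values. Neutrophil markers had a median log2 difference of 0.60 and summed signals of 6575 to 11406 in KO and 4555 to 7006 in wild type, and 1 of 8 tested passed. This was Chil3 (log2 difference 2.09, adjusted p = 0.034), which did not pass once any one array other than KO replicate 2 was left out (adjusted p between 0.0782 and 0.131). With the deposit block as a covariate 3 of the 8 passed as higher (Chil3, Lcn2 and Ngp), and the same 3 passed without KO replicate 2. Within the second deposit block, where 2.69% of all probe sets passed, 6 of the 8 did, with Camp, S100a8 and S100a9 added. S100a8 and S100a9 differed by 1.12 and 1.05 in that block and by -0.30 and -0.32 in the first. Fibroblast markers had a median of -0.33 and summed signals of 27866 to 44509 in KO and 42752 to 48427 in wild type, and 0 of 6 passed. Both Fap (log2 difference -1.24, adjusted p = 0.00595) and Lum (-1.17, adjusted p = 0.00543) passed without KO replicate 2. Lum also passed within the second deposit block (adjusted p = 0.0173). Without KO replicate 2 the other fibroblast markers ran from -0.47 (Col1a1) to -0.02 (Pdgfra). Within the second deposit block Pdgfra and Col3a1 differed by 0.26 and 0.05, and Fap, Dcn and Col1a1 by -1.02, -0.16 and -0.10. Of the 6 general and white fat, 7 macrophage, 3 lymphoid, 2 erythroid and 6 endothelial markers tested, 0 passed with all 7 arrays. Without KO replicate 2, the adipokine genes Retn (-0.67, adjusted p = 0.00471) and Lep (-1.12, adjusted p = 0.0307) passed as lower and the macrophage gene Lyz2 (0.68, adjusted p = 0.0181) as higher. In that fit the other general and white fat markers ran from -0.01 (Cidec) to 0.14 (Adipoq and Fabp4). The other macrophage markers ran from -0.46 (Cd68) to 0.58 (Cd14). With all 7 arrays the medians of the general and white fat list and of the macrophage list were 0.0 and 0.07. Within the second deposit block Retn (-0.56, adjusted p = 0.0371) and Lyz2 (0.80, adjusted p = 0.0419) passed, while in the first they differed by -0.48 and 0.22. Their part in the values of the complex was not tested.

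Over the 7 arrays, the genes whose log2 signals ran most like those of Pdk4 were Usp24 (Pearson r = 0.979), Gdf9 (0.975), Aldoa (0.973), Ddx46 (0.973) and Sdc4 (0.973). Aldoa, a glycolytic aldolase, read 21151, 16271, 19873 and 23214 in KO, against 17528, 17633 and 17027 in wild type, so that KO replicate 2 was the lowest of the 7 arrays. Among the members, Pdhx was nearest to Pdk4 (r = 0.853) and the Pdk1 probe set 1423747_a_at furthest (r = -0.741). The points share their arrays and these correlations are a description over 7 arrays.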

How the data were processed

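Total RNA of 4 KO and 3 wild-type brown fat samples had been extracted with Trizol and labelled with biotin, per the labels' protocols. The submitters' processing notes name GCOS 1.2. The authors deposited linear signal intensities, 1 for each probe set on each array. The scaling and any detection calls are not given in the sources used here, and precision is limited by how many arrays there are. Of 45037 probe sets without controls, 34945 carry 1 gene symbol. A constant of 30.6, the 20th percentile of all signals, was added before taking log2. Probe sets under the 40th percentile of mean log2 value were left out. KO was compared with wild type in R 4.3.3 by limma 3.58.1 (two-sided, eBayes with trend, Benjamini-Hochberg). The fit was also run on simulated data with the spreads shuffled among probe sets, which cannot test the variance trend. Genes named were all members, the called genes of each list or otherwise up to 3 by smallest p, and the 5 genes most like Pdk4; further probe sets or genes were named after their values were seen. Members and lists were chosen with earlier results of these data known. Alternatives were other scalings, offsets, filters, variance models, blocks and leaving out arrays. Promoter windows are those of RefSeq, GRCm38.p6; all 10 genes matched.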

Additional observations from a re-analysis of the deposited data

Results flagged for a closer look

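Within a genotype, a single array lay far from its group for 2 of the 72 sets of 4 KO arrays examined, where chance gives about 1 in 20. Gpt 1426502_s_at read 2970 on KO replicate 2, while the other KO arrays read 1501 to 1682, and the gap was 0.877 of the range of the KO arrays. The wild-type arrays read 3258 to 3784. Acat1 1424183_at, a thiolase of ketone and branched-chain metabolism, read 21066 on KO replicate 4, while the other KO arrays read 17369 to 17996, a gap of 0.83 of the range.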

How the results depend on the processing

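Of 287 alternative values of the 16 tested member probe sets, 259 kept their direction and their side of the threshold. In 2, Pdhb 1448214_at came to pass, at -0.68 without KO replicate 2 (adjusted p = 0.0189) and at -0.68 with a replicate block (adjusted p = 0.0247), which drops that array; its adjusted p lay between 0.0189 and 0.243 over all alternatives. The cause was not tested. The other 26, of 8 probe sets near 0, changed sign without passing. They were, with arrays scaled to a common median, Dlat 1426265_x_at 0.01, Pdk2 0.01 and Pdp2 0.00; with offset 100, Pdk1 1434974_at 0.00; with the replicate block, Dlat 1426265_x_at 0.01; and within the second deposit block, Pdha1 1418560_at 0.02, Dlat 1426265_x_at 0.02, Dlat 1452005_at -0.03, Pdk1 1423748_at 0.01, Pdk1 1434974_at -0.11 and Pdk2 0.03. Leaving out 1 array at a time gave ranges of -0.06 to 0.03 for Dlat 1426265_x_at, -0.01 to 0.11 for Dlat 1426264_at, -0.14 to 0.00 for Pdha1 1418560_at, -0.13 to 0.02 for Pdk1 1423748_at, -0.10 to 0.19 for Pdk1 1434974_at, -0.06 to 0.03 for Pdk2 and -0.13 to 0.15 for Pdp2. Member probe sets that passed numbered 0 with all arrays, 1 with the replicate block and 0 to 1 over the fits that leave out 1 array. Over all probe sets 431 passed, against 235 with median scaling, 100 with no filter, 6 with no variance trend, 726 within the second deposit block, 2173 with the replicate block and 7 to 1986 over the fits that leave out 1 array, the highest without KO replicate 2. Genes of the lists that passed numbered 1, against 2 with quantile normalization, 2 with offset 100, 4 with the stricter filter, 3 with the deposit block, 6 within the second deposit block, 10 with the replicate block, 0 with no filter, 0 with no variance trend and 0 to 11 over the fits that leave out 1 array. Deviations of same-numbered KO and wild-type arrays correlated at 0.0567, 0.149 and 0.105. No values of differently numbered arrays are given beside them, so they cannot decide whether the numbers pair samples. The main fit did not pair them. Dim probe sets, such as those of Pdk3 and Dld 1433263_at, were tested only with no filter.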

Other observations

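Ppargc1a, the coactivator of mitochondrial genes and of Pdk4, varied more among wild-type arrays than between the genotypes. Its brightest probe set, 1456395_at, read 1579, 1564, 1355 and 1835 in KO, against 916, 3106 and 900 in wild type (log2 difference 0.19, adjusted p = 0.846 by limma). Wild-type replicate 3 was the highest of the 7 arrays on all 5 tested probe sets of the gene, at 2.02 to 3.42 times the mean of the other wild-type arrays. Pdk4 read 17941 on that array, the highest of the wild-type arrays.

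Hif1a, the oxygen-regulated factor known to induce Pdk1, did not give the same reading on its probe sets. The brightest, 1427418_a_at, differed by -0.07 (adjusted p = 0.907). The probe set 1416035_at, singled out after its values were seen, read 500, 574, 415 and 422 in KO, against 827, 661 and 805 in wild type, with no overlap (adjusted p = 0.0639 by limma), and passed with all 7 arrays once the deposit block entered the fit (log2 difference -0.69, adjusted p = 0.0338) and without KO replicate 2 (-0.74, adjusted p = 0.0147). No test of the difference between the probe sets was run.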
